A study of Mus musculus with 6 samples.

Results

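Glucose is burned, stored as fat or turned into reducing power by a small set of enzymes, and 36 genes of this machinery were described in visceral fat, which lies around the abdominal organs. The set holds 2 glucose carriers, 14 genes of the upper part of glycolysis with its regulators, 9 of the lower part, 4 of lactate handling, and 7 of the pentose phosphate pathway. The genes were chosen by name, and their Ensembl identifiers were matched to symbols of the GRCm38 genome. All 36 were found among the 46603 identifiers counted, and all 36 passed the filter on low counts that left 15828 genes to test.

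Glycolysis splits glucose into pyruvate, and lactate dehydrogenase turns pyruvate into lactate, which leaves the cell through monocarboxylate carriers. In fat cells a part of the glucose becomes the glycerol backbone of triglyceride, and the oxidative arm of the pentose phosphate pathway supplies the NADPH that fatty acid synthesis consumes. Most steps can be catalysed by several isoenzymes, which are products of separate genes used to different extents by fat cells, muscle, nerve and blood cells.

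RNA was sequenced from 3 libraries of NM1 KO mice and 3 libraries of wild-type (WT) mice. Both groups were C57/Bl6 mice aged 18 months that received no treatment. NM1, nuclear myosin 1, is a form of the class I myosin Myo1c that works in the nucleus, where it takes part in transcription. The labels give neither the sex nor the altered part of the locus. They number the replicates, but whether each was another animal is not stated, so every p-value rests on a spread between libraries that could be technical. Each sample was a small piece from the tip of the depot. In such bulk tissue, fewer cells of a type and less RNA per cell cannot be told apart.

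Between 27525446 and 33537818 counts were assigned to genes in the NM1 KO libraries, and between 24677758 and 31228723 in the WT libraries. The 36 genes took 0.785% to 0.913% of the counts in NM1 KO and 0.702% to 0.938% in WT. Levels are given as CPM, counts per 1e6 counts after TMM scaling, with mean ± SD over n = 3 libraries per group. A log2 fold change is the NM1 KO level minus the WT level on the log2 scale, given ± SE. Genes with a Benjamini-Hochberg adjusted p under 0.05 over all 15828 genes in the quasi-likelihood test of edgeR were called. Summed fat cell markers, among them Adipoq and Plin1, lay between 20630 and 24830 CPM in NM1 KO and between 21920 and 24050 CPM in WT, so every library held fat cell RNA. These markers do not tell fat depots apart. Of the 6 markers, Lep alone had a positive log2 fold change, with 4346 ± 546 CPM in NM1 KO and 1946 ± 864 CPM in WT. The others were negative and 0 of the 6 were called (4.25% of all genes tested were), so the sums do not show equal fat cell RNA. Myo1c, whose count pools all its isoforms and so does not check the knockout, had 452, 697 and 551 CPM in NM1 KO and 801, 759 and 801 CPM in WT (adjusted p = 0.151, edgeR).

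Of the 36 genes, 1 was called, and it was higher in NM1 KO. This was Hk3, a hexokinase of myeloid cells. It amounts to 2.78% of the set, while 4.25% of all genes tested were called, 2.79% higher and 1.47% lower. The remaining 35 genes held 0 calls by edgeR, with 3 lower and 0 higher at an unadjusted p under 0.05, against 23.7% of all genes, 10.8% lower and 13.0% higher. DESeq2 and limma-voom each called 1 of these 35, Pfkfb1, which was lower in NM1 KO (14.1% and 10.4% of all genes were called by those tools).

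The set as a whole moved little. A positive log2 fold change was found for 18 of the 36 genes, against 49.7% of all genes tested, and the median was -0.005, against -0.002. In 27 of 36 the log2 fold change lay within 0.25 of zero (75%, against 46.7% of all genes). Here and below, all genes tested were not matched to the set by expression level, on which such shares can depend. The 95% interval of the log2 fold change lay wholly within -1 to 1 for 30 of 36 genes (83.3%, against 60.2%), but within -0.5 to 0.5 for only 12 (33.3%, against 25.4%). A change of 2-fold was thus outside the interval for most of these genes, while changes of 0.5 on the log2 scale lay inside it for most of them. For 2 genes that were higher and 7 that were lower in NM1 KO, no NM1 KO library lay within the WT range. The same held for 29.9% of all genes, 14.9% higher and 15.0% lower.

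**Figure D1:**
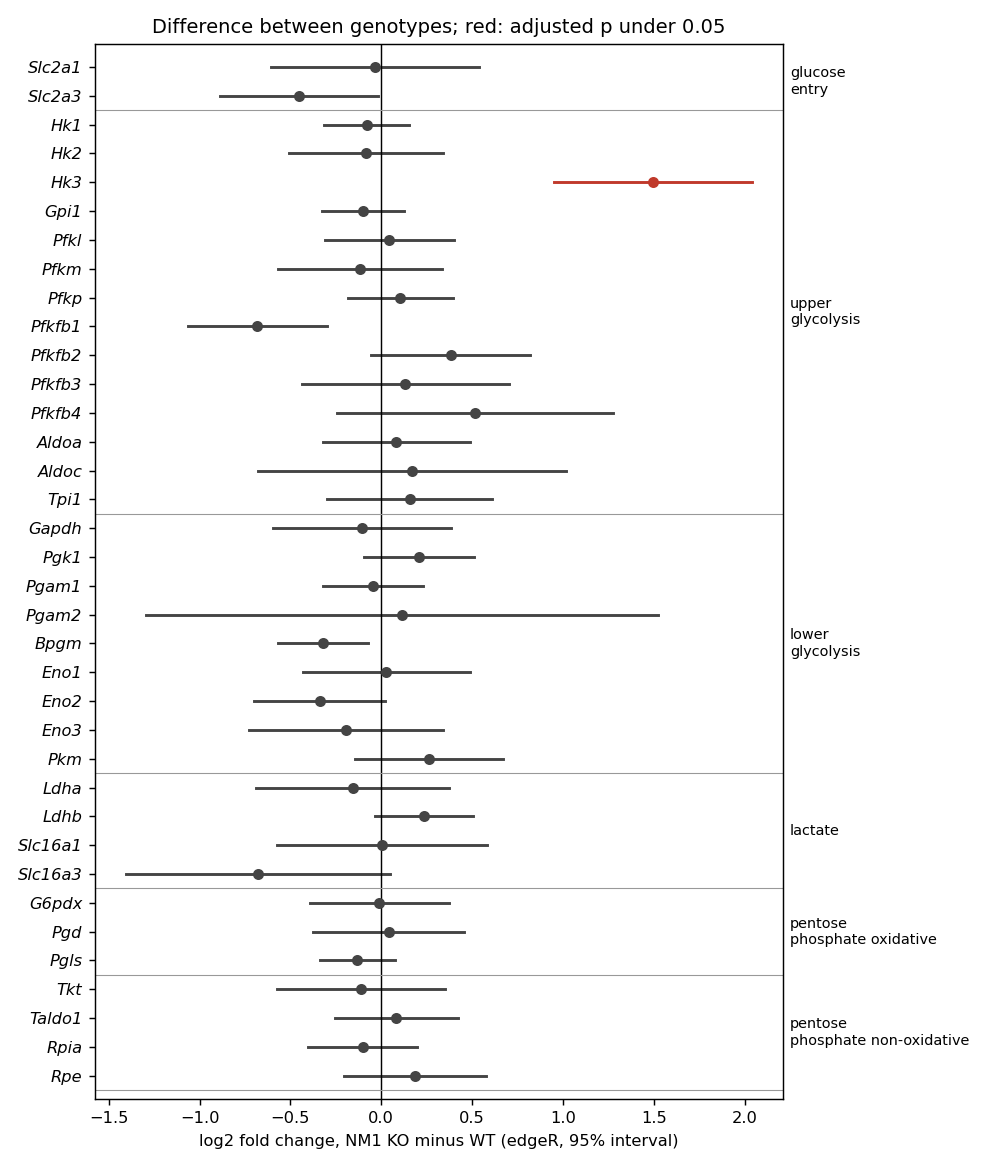
Log2 fold change (NM1 KO minus WT, horizontal axis) of each of the 36 genes, grouped by role, with bars for the 95% interval. Hk3 stands at 1.49 with an interval from 0.95 to 2.04, and 27 of the 36 points lie within 0.25 of zero.

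Per kilobase of exon, the most abundant transcript of the set was Aldoa, the aldolase that splits fructose bisphosphate, at 494 ± 34 RPKM in NM1 KO and 466 ± 88.9 RPKM in WT. Ldha followed with 276 ± 30.8 RPKM in NM1 KO and 308 ± 96.2 RPKM in WT. Tpi1, which interconverts the triose phosphates, had 224 ± 29.2 RPKM in NM1 KO and 200 ± 44.2 RPKM in WT. These 3 were followed by Taldo1 (173 RPKM in NM1 KO, 163 RPKM in WT), Pkm (147 RPKM in NM1 KO, 123 RPKM in WT) and Pfkfb3 (122 RPKM in NM1 KO, 111 RPKM in WT). Pkm and Pfkfb3 lay within the larger of their SDs of each other in both groups, as did Tpi1 and Taldo1 in WT, and the other neighbours in this order were further apart than that. The order depends on the length used, as Pfkfb3 has 7561 exonic bases but 2216 in its longest coding transcript. The places of Gapdh, Pgk1, Eno1 and Pgam1 in it are uncertain, because they share sequence with copies, as described below. At the other end, Aldoc and Pgam2 were under 1 RPKM in both groups, and Pfkfb2 averaged 1.20 RPKM in NM1 KO and 0.920 RPKM in WT.

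Glucose entry came first. Slc2a1 encodes GLUT1, the carrier for basal uptake, and Slc2a3 encodes GLUT3, a high-affinity carrier best known from neurons and also made by leukocytes. Slc2a1 had 22.3, 16.2 and 13.7 CPM in NM1 KO and 15.0, 23.0 and 15.4 CPM in WT, with a log2 fold change of -0.03 ± 0.24 (adjusted p = 0.95, edgeR). NM1 KO 1 and WT 2 were the high libraries, and the ranges overlapped. Slc2a3 had 11.2, 15.9 and 16.6 CPM in NM1 KO and 21.0, 17.5 and 21.3 CPM in WT. Every NM1 KO library lay under every WT library, but the log2 fold change of -0.45 ± 0.19 was not called (adjusted p = 0.195, edgeR). Slc2a4, which is outside the set and encodes the insulin-regulated carrier GLUT4 of fat cells, had 146, 197 and 191 CPM in NM1 KO and 279, 188 and 258 CPM in WT (log2 fold change -0.44 ± 0.18, adjusted p = 0.207, edgeR), with overlapping ranges.

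Hexokinase phosphorylates glucose and so traps it in the cell. Hk2 is the insulin-responsive form of fat and muscle, Hk1 the form found in most tissues, and Hk3 a form of myeloid cells. Hk3 (ENSMUSG00000025877) lies on the minus strand of chromosome 13, from 55005985 to 55021385 in the GRCm38 build. It had 85.2, 58.4 and 52.1 CPM in NM1 KO and 26.1, 17.8 and 25.6 CPM in WT. The lowest NM1 KO library lay well above the highest WT library, at means of 65.2 ± 17.6 CPM in NM1 KO and 23.2 ± 4.6 CPM in WT. The rise was 2.82-fold, a log2 fold change of 1.49 ± 0.23 (95% interval 0.95 to 2.04, adjusted p = 0.0263, edgeR). Between 558 and 2646 reads were counted on Hk3 per library, so counting error was small beside the spread between libraries. The call was lost when 1 library was left out, for each of NM1 KO 3, WT 1, WT 2 and WT 3, with log2 fold changes of 1.64, 1.59, 1.34 and 1.57 and adjusted p of 0.0644, 0.0728, 0.0732 and 0.0992 (edgeR). In those fits only 0.0304%, 0.225%, 0.0247% and 0.00608% of all genes were called, against 4.25% with all 6 libraries, so the loss was not particular to Hk3. Hk3 shares 34 exonic bases with Unc5a on the opposite strand, which had 780 to 1551 counts per library, and whether the counting used strand is not stated in the sources used here.

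Sums of macrophage markers, like Hk3, were higher in NM1 KO. The sum of 8 macrophage markers was 2839, 2593 and 2873 CPM in NM1 KO and 1842, 1662 and 2116 CPM in WT, with 7 of the 8 at a positive log2 fold change and 2 called higher, Adgre1 and Cd68. Of all genes tested, 49.7% had a positive log2 fold change and 2.79% were called higher. The 8 markers of lipid-associated macrophages, which gather around loaded fat cells, summed to 15560, 9416 and 10480 CPM in NM1 KO and 7635, 7157 and 5865 CPM in WT, with 4 called higher, among them Trem2. Most of this sum was Lpl, which fat cells make as well and which was not called (51.8% to 62.2% of the sum in NM1 KO and 67.7% to 69.7% in WT). The other 7 markers summed to 7012, 4537 and 3962 CPM in NM1 KO and 2464, 2297 and 1778 CPM in WT, so the groups were apart with and without Lpl. NM1 KO 1, the library highest in Hk3, was also highest in the lipid-associated sum with and without Lpl. The sum of the 8 macrophage markers was highest in NM1 KO 3, which had the least Hk3 of the NM1 KO libraries. That lead was small, at 2873 CPM against 2839 CPM in NM1 KO 1. Neutrophils make Hk3 as well, and the sum of 6 neutrophil markers was 25.1, 21.2 and 14.9 CPM in NM1 KO and 13.8, 61.0 and 15.4 CPM in WT, with Ly6g at 0 in every library but WT 1. Of its 4 tested markers edgeR called 0, with 2 lower at an unadjusted p under 0.05, against 4.25% and 10.8% of all genes tested. WT 2, the library with the most neutrophil marker RNA, had the least Hk3. The part of these cells in the Hk3 result was not tested.

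**Figure D2:**
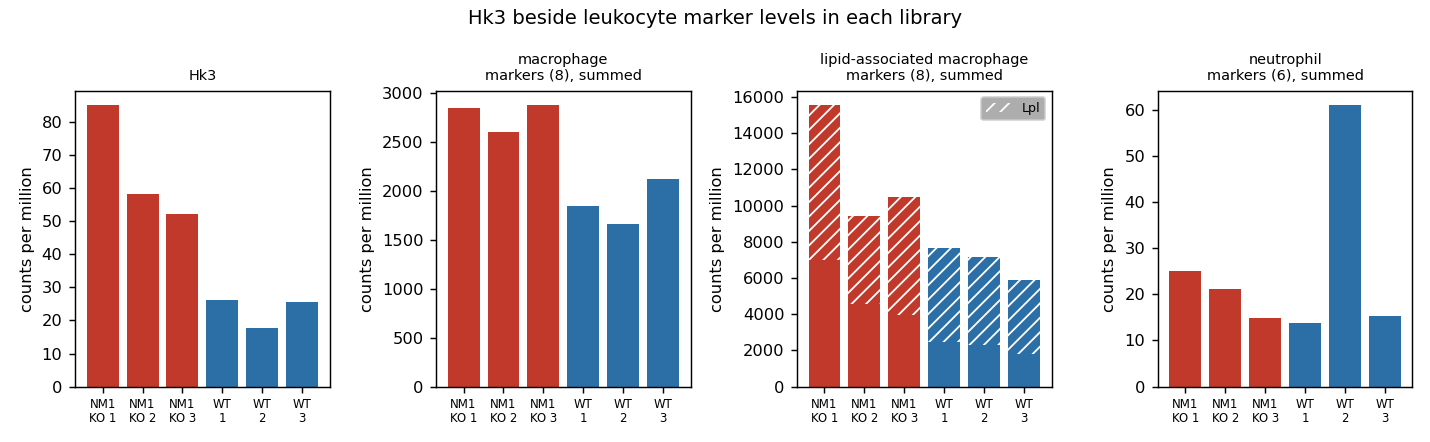
Hk3 and the summed levels of 3 lists of leukocyte markers in each library, in CPM (vertical axes, from 0), with NM1 KO in red and WT in blue. The 3 NM1 KO libraries lie above the 3 WT libraries for Hk3 and both macrophage sums, also without the hatched Lpl part, and WT 2 alone stands out for neutrophil markers at 61.0 CPM.

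The promoter of Hk3 is shown because Hk3 was the called gene of the set, beside that of Ldha, a textbook target of hypoxia signalling that did not differ detectably. Both are RefSeq windows on GRCm38.p6, at chr13:55021336-55021635 on the minus strand and chr7:46845554-46845853 on the plus strand, and run 5′ to 3′. Capitals mark ACGTG, a core of the hypoxia response element, and GAGGAA, a core bound by the myeloid factor PU.1, each on either strand. Other forms of these cores were not searched.
Hk3: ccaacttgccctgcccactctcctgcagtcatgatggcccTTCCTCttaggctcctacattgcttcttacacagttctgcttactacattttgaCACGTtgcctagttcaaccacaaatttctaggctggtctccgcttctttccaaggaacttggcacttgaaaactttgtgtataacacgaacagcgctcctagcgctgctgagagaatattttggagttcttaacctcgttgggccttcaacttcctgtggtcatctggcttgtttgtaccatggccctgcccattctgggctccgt
Ldha: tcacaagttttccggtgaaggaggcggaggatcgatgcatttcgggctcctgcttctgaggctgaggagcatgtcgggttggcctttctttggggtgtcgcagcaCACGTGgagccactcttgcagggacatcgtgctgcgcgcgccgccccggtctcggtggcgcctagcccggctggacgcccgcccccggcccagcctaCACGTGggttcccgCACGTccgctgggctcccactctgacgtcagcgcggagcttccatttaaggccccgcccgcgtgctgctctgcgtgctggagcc
The Hk3 window holds 1 match to each motif, and the Ldha window 5 matches to ACGTG, counted on both strands so that each CACGTG gives 2 overlapping matches, and 0 to GAGGAA. This Ldha window was printed because it had the most ACGTG matches. The other Ldha window, chr7:46846832-46847131, holds 0 matches to either motif. Promoter entries were found for 35 of the 36 genes, with 53 windows in all. At least 1 ACGTG occurred in 39.6% of these windows (17 genes), against 19.6% of the 32851 windows of all genes, and GAGGAA in 26.4% (10 genes), against 28.3%. The windows of all genes were not matched to those of the set by base content, on which such shares can depend, and some genes have several windows. A match is a run of letters and does not show that a factor binds.

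The other hexokinases were not called. Hk2 had 131, 186 and 139 CPM in NM1 KO and 175, 131 and 178 CPM in WT (log2 fold change -0.08 ± 0.18, adjusted p = 0.811, edgeR), so the groups spanned the same range. Hk1 was among the steadiest genes of the set, at 72.7 ± 5.9 CPM in NM1 KO and 76.9 ± 1.8 CPM in WT (-0.08 ± 0.10, adjusted p = 0.663, edgeR). The Hk3 share of the family was higher in every NM1 KO library than in every WT library. Per kilobase of exon, Hk3 made up 34.2% ± 8.4 of hexokinase transcripts in NM1 KO and 14.8% ± 1.0 in WT, Hk2 49.2% ± 7.1 in NM1 KO and 63.7% ± 1.8 in WT, and Hk1 16.6% ± 2.1 in NM1 KO and 21.6% ± 2.7 in WT. With the length of the longest coding transcript in place of all exons, the Hk3 share was 30.4% in NM1 KO and 12.7% in WT, and the Hk1 share 28.4% in NM1 KO and 35.7% in WT. Shares of a family sum to 100%, so a higher Hk3 share lowers the shares of Hk1 and Hk2 whether or not they change.

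Isoenzymes were also compared as log2 ratios of counts within a library, over 13 pairs. Scaling drops out of such a ratio, and gene length drops out of its difference between groups. The test was an exact two-sided permutation test, whose smallest possible p with 3 against 3 libraries is 0.1. The ratio Hk3/Hk1 was 0.36, -0.41 and -0.51 in NM1 KO and -1.58, -2.07 and -1.61 in WT. The groups were apart by 1.57 ± 0.32 (exact permutation p = 0.1, adjusted over the 13 pairs 0.65). The ratio Hk2/Hk1 differed by -0.004 ± 0.17 (exact permutation p = 1), with means of 1.05 in both groups.

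**Figure D3:**
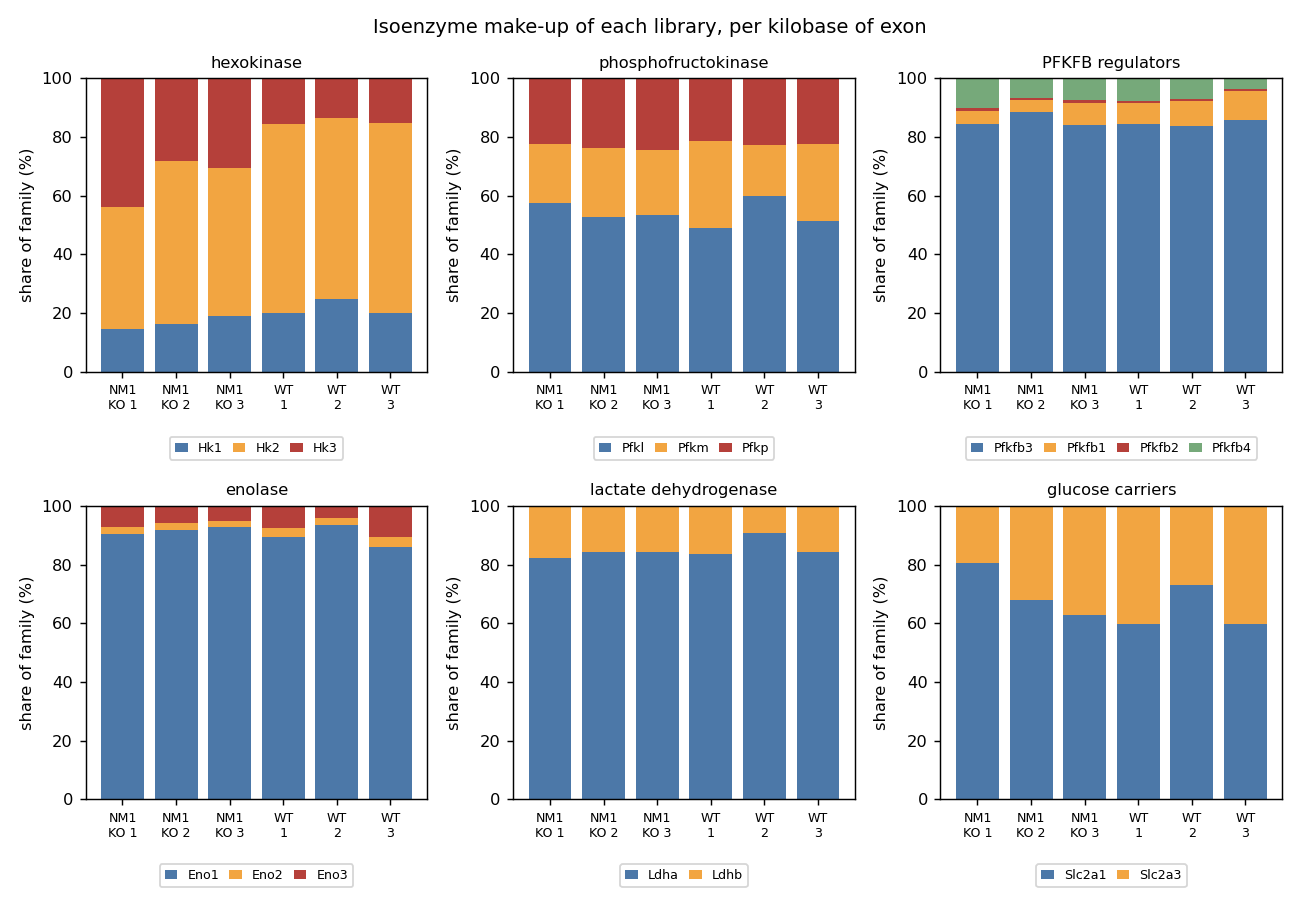
Share of each isoenzyme in its family (vertical axis, percent of counts per kilobase of exon) in each library, NM1 KO left of WT, for 6 families. The glucose carriers shown are Slc2a1 and Slc2a3, without Slc2a4. Hk3 takes more of the hexokinase bar in all 3 NM1 KO libraries, 34.2% on average against 14.8% in WT, while Pfkfb3 leads its family in every library.

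Glucose 6-phosphate is next turned into fructose 6-phosphate by Gpi1, which had 283 ± 10.6 CPM in NM1 KO and 304 ± 9.9 CPM in WT, a difference of -0.10 ± 0.10 on the log2 scale (adjusted p = 0.561, edgeR). Its ranges did not overlap, but they lay within 1.16-fold of each other from the lowest to the highest library. Phosphofructokinase then commits the sugar to glycolysis. Pfkl, the liver-type subunit and the leading one per kilobase of exon, had 148, 150 and 138 CPM in NM1 KO and 133, 173 and 117 CPM in WT (0.05 ± 0.15, adjusted p = 0.884, edgeR). Pfkp, the platelet-type subunit, averaged 126 ± 10.6 CPM in NM1 KO and 117 ± 13.8 CPM in WT, and Pfkm, the muscle-type subunit, 29.2 ± 3.6 CPM in NM1 KO and 31.7 ± 7.7 CPM in WT. All 3 subunits overlapped between the groups, and Pfkl held 54.6% ± 2.5 of the family in NM1 KO and 53.4% ± 5.8 in WT. The WT spread came with WT 2, where Pfkl was highest and Pfkm lowest of the 6 libraries.

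The PFKFB enzymes make and break down the sugar bisphosphate that stimulates phosphofructokinase. Pfkfb3, the form with the highest kinase activity, led the family with 85.7% ± 2.5 of transcripts per kilobase in NM1 KO and 84.7% ± 1.1 in WT. It had 826, 1279 and 662 CPM in NM1 KO and 891, 763 and 869 CPM in WT, so that both the highest and the lowest library were NM1 KO (0.13 ± 0.24, adjusted p = 0.774, edgeR). Pfkfb1, the form of liver and muscle, had 23.2, 31.6 and 30.3 CPM in NM1 KO and 41.8, 41.8 and 53.1 CPM in WT. All 3 NM1 KO libraries lay under all 3 WT libraries. The log2 fold change of -0.68 ± 0.16 (95% interval -1.06 to -0.30) was the lowest of the set and just missed the call (adjusted p = 0.0625, edgeR). Its 18 alternative settings gave log2 fold changes of -0.80 to -0.54 and adjusted p of 0.00456 to 0.189, and 6 of them called it lower. Those included the offset for GC content and exonic length, under which 4.52% of all genes were called, and the fit without NM1 KO 2, under which 10.2% were.

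Relative to Pfkfb3, Pfkfb1 stood at log2 ratios of -5.15, -5.34 and -4.45 in NM1 KO and -4.42, -4.19 and -4.03 in WT. This was the other pair of the 13 whose ranges were apart, by -0.77 ± 0.29 (exact permutation p = 0.1, adjusted 0.65), and the gap between NM1 KO 3 and WT 1 was narrow. Pfkfb4, a form induced by hypoxia, had 54.9 ± 15.1 CPM in NM1 KO and 38.4 ± 14.5 CPM in WT (0.52 ± 0.32, adjusted p = 0.376, edgeR), with a 2.79-fold span between its lowest library, WT 3, and its highest, NM1 KO 1. Pfkfb2, the heart form, was low at 8.70 ± 1.3 CPM in NM1 KO and 6.67 ± 0.58 CPM in WT. Its ranges did not overlap, yet it was not called (0.38 ± 0.19, adjusted p = 0.263, edgeR). Pfkfb2 shares 17.4% of its exonic bases with Gm29427 on the same strand, so its level and family share are uncertain.

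Aldolase and triose phosphate isomerase closed the upper part of the pathway. Aldoa had 1339, 1537 and 1437 CPM in NM1 KO and 1494, 1519 and 1059 CPM in WT (0.08 ± 0.17, adjusted p = 0.805, edgeR). Only WT 3 was apart from the rest. Aldoc, the brain form, averaged 2.19 ± 0.39 CPM in NM1 KO and 1.95 ± 0.72 CPM in WT, so Aldoa held 99.9% of the family in both groups. Tpi1 had 615 ± 80.3 CPM in NM1 KO and 552 ± 122 CPM in WT (0.16 ± 0.19, adjusted p = 0.664, edgeR).

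The lower part of glycolysis, from the triose phosphates to pyruvate, held 0 calls by edgeR among 9 genes, against 4.25% of all genes tested. It held 1 gene, Bpgm, at an unadjusted p under 0.05, against 23.7% of all genes tested. Several of its transcripts share long stretches with processed pseudogenes, copies of a messenger RNA that were inserted elsewhere in the genome, and reads from such stretches cannot be placed on 1 gene. Of 75-base words in the transcript, 88.2% of those of Gapdh, 67.5% of Pgk1, 65.4% of Eno1 and 40.6% of Pgam1 also occurred in a transcript of another gene, and for the coding part of Pgk1 and Pgam1 it was 100%. Of the 36 genes, 23 shared no such word.

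A coding stretch of Gapdh (chr6:125162940-125163014, minus strand) is shown beside the same stretch of the processed pseudogene Gm5559 (chr5:95862061-95862135, plus strand), both from GENCODE M21 transcripts on GRCm38, to show how little separates them. The capital marks the 1 base of 75 that differs.
Gapdh: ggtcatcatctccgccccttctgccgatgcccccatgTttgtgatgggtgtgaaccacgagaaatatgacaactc
Gm5559: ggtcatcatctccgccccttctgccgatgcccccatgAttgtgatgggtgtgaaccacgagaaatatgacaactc
The Gapdh version of this stretch occurs unchanged in 37 other annotated genes. At 95% identity over at least 200 bases, Gapdh had 78 annotated copies, of which 74 were counted, and the copies held 22.7% to 25.2% of the counts of Gapdh and copies together in NM1 KO and 17.7% to 25.3% in WT. Most of the copy counts fell on Gm7336 in every library but WT 2, where it had 905 of 1870. The copies of Pgk1, Pgam1 and Eno1 held at most 2.27% of the counts. The sources used here do not state how reads with several places were counted, and the levels of these 4 genes are uncertain.

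**Figure D4:**
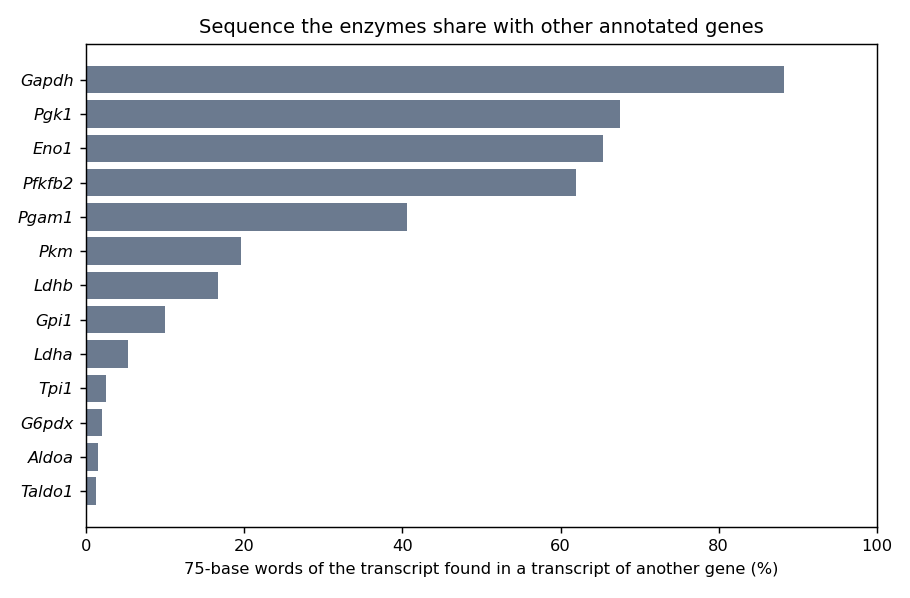
Percent of the 75-base words of each transcript (horizontal axis) that also occur in a transcript of another gene, for the 13 genes with any such word. Gapdh stands highest at 88.2%, and 5 genes lie above 40%, of which Pfkfb2 overlaps another annotated gene on the same strand.

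Gapdh, which oxidises glyceraldehyde phosphate and yields NADH, was counted at 198 ± 16.3 CPM in NM1 KO and 213 ± 62.1 CPM in WT (-0.11 ± 0.21, adjusted p = 0.794, edgeR). Pgk1, the first ATP-yielding kinase of the pathway, had 35.0 ± 1.3 CPM in NM1 KO and 30.3 ± 4.3 CPM in WT (0.21 ± 0.13, adjusted p = 0.372, edgeR). Both overlapped between the groups. Pgam1, the mutase of most tissues, had 174, 171 and 159 CPM in NM1 KO and 171, 196 and 154 CPM in WT (-0.05 ± 0.12, adjusted p = 0.844, edgeR). Its muscle counterpart Pgam2 had 8 to 40 counts per library, under 1 CPM on average in both groups, and was not compared as a ratio.

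Bpgm makes and degrades bisphosphoglycerate and is best known from red blood cells, where the product lowers the oxygen affinity of hemoglobin. It had 25.8, 28.6 and 28.5 CPM in NM1 KO and 32.5, 35.0 and 36.1 CPM in WT. The libraries of each group were close together and the ranges were apart, but the log2 fold change of -0.32 ± 0.11 was not called (95% interval -0.57 to -0.07, adjusted p = 0.127, edgeR). The sum of 7 red cell markers, all with a negative log2 fold change, was 439, 743 and 852 CPM in NM1 KO and 999, 1074 and 1109 CPM in WT. By edgeR 0 of the 7 were called, while 7 had an unadjusted p under 0.05, against 4.25% and 23.7% of all genes tested. The part of red cells in the Bpgm values was not tested.

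Enolase turns phosphoglycerate into phosphoenolpyruvate. Eno1, the form of most tissues, had 438, 523 and 472 CPM in NM1 KO and 433, 606 and 366 CPM in WT (0.03 ± 0.20, adjusted p = 0.947, edgeR), so that the highest and the lowest library were both WT. Eno2, the neuronal form, had 10.5 ± 1.3 CPM in NM1 KO and 13.3 ± 0.77 CPM in WT, with ranges apart and no call (-0.34 ± 0.15, adjusted p = 0.234, edgeR). Eno3, the muscle form, averaged 10.1 ± 1.7 CPM in NM1 KO and 11.5 ± 2.7 CPM in WT, in tissue where 10 skeletal muscle markers together summed to 42.8 to 133 CPM in NM1 KO and 77.8 to 155 CPM in WT. None of the 3 enolases was called. Pkm, the pyruvate kinase gene, averaged 735 ± 62.1 CPM in NM1 KO and 613 ± 129 CPM in WT (0.26 ± 0.17, adjusted p = 0.403, edgeR), with WT 2 inside the NM1 KO range. Its 2 splice forms were not told apart by a count per gene.

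Among the lactate genes, Ldha, the form that favours lactate production, had 816, 1019 and 908 CPM in NM1 KO and 877, 1385 and 799 CPM in WT (-0.16 ± 0.23, adjusted p = 0.711, edgeR). WT 2 was far above the other 5 libraries. Ldhb, the heart form, had 84.3 ± 5.1 CPM in NM1 KO and 71.8 ± 8.0 CPM in WT (0.23 ± 0.12, adjusted p = 0.268, edgeR). Slc16a1, which encodes the widely used carrier MCT1, had 73.0, 86.8 and 102 CPM in NM1 KO and 56.7, 107 and 97.2 CPM in WT. Its log2 fold change was 0.00 ± 0.25 (adjusted p = 0.996, edgeR), as the group means were nearly equal. Slc16a3, which encodes MCT4, the carrier of strongly glycolytic cells, had 6.21, 7.97 and 7.76 CPM in NM1 KO and 9.13, 17.6 and 8.34 CPM in WT. The ranges were apart, but WT 2 set most of the difference. Its log2 fold change was -0.68 ± 0.31 (adjusted p = 0.237, edgeR), and -0.26 without WT 2 (adjusted p = 0.524, edgeR).

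In the oxidative arm of the pentose phosphate pathway, 3 of 3 genes had a 95% interval within -0.5 to 0.5. G6pdx, the entry enzyme and first source of NADPH, averaged 304 ± 54.1 CPM in NM1 KO and 307 ± 40.6 CPM in WT (-0.01 ± 0.16, adjusted p = 0.975, edgeR). Pgls, the lactonase of the next step, had 64.1 ± 2.0 CPM in NM1 KO and 70.3 ± 1.3 CPM in WT (-0.13 ± 0.09, adjusted p = 0.404, edgeR), with ranges apart by a small margin. Pgd, the other NADPH-yielding dehydrogenase, had 421 ± 49.4 CPM in NM1 KO and 409 ± 82.2 CPM in WT (0.04 ± 0.18, adjusted p = 0.912, edgeR). The arm that feeds lipogenesis with NADPH was thus counted at nearly equal means in both groups. G6pdx shares 13.6% of its exonic bases with Ikbkg on the opposite strand, and Pgls 20.6% with Fam129c on the same strand.

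The non-oxidative arm rearranges sugars and links the pathway back to glycolysis. Tkt, the transketolase, averaged 454 ± 32.8 CPM in NM1 KO and 490 ± 129 CPM in WT (-0.11 ± 0.20, adjusted p = 0.769, edgeR). Taldo1, the transaldolase, averaged 375 ± 32.8 CPM in NM1 KO and 355 ± 56.1 CPM in WT (0.08 ± 0.15, adjusted p = 0.768, edgeR). Rpia and Rpe, the ribose phosphate isomerase and the epimerase, were lower in level, Rpia at 29.5 ± 2.5 CPM in NM1 KO and 31.7 ± 3.6 CPM in WT, Rpe at 69.3 ± 14.6 CPM in NM1 KO and 60.9 ± 4.5 CPM in WT. All 4 ranges overlapped, and all 4 log2 fold changes lay within 0.25 of zero.

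**Figure D5:**
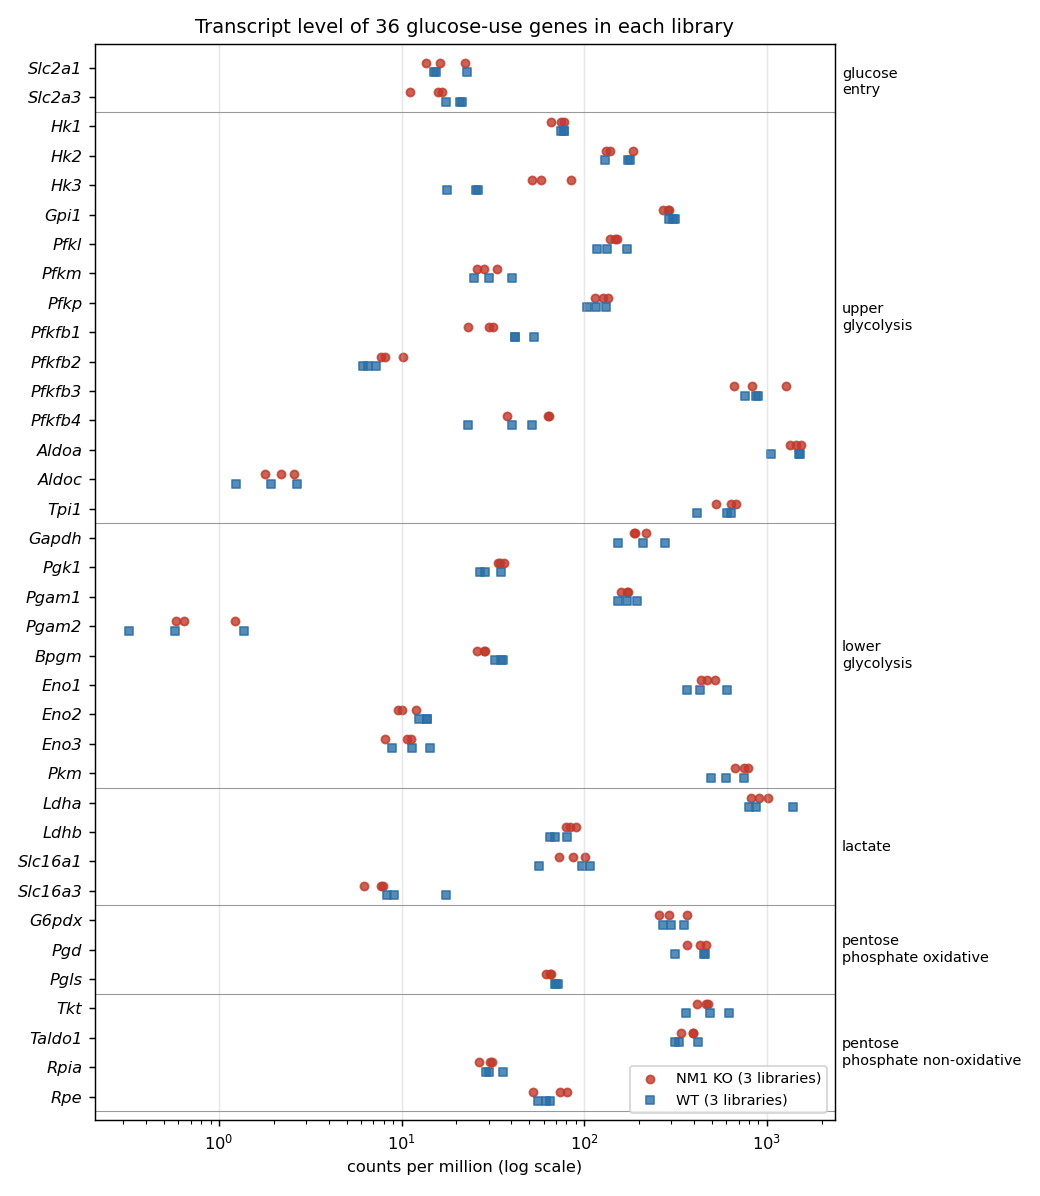
Level of each of the 36 genes in each library in CPM (log axis), grouped by role, with NM1 KO in red and WT in blue. Hk3 has its 3 NM1 KO libraries well above its 3 WT libraries, and most other genes show overlapping points.

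The libraries differed in where they stood over the set. WT 2 was the highest library for 12 of the 36 genes and WT 3 the lowest for 15, whereas NM1 KO 3 was the highest for 0. The WT libraries were widely spread for some abundant genes, of which 3 are given here, chosen after their values were seen. In WT 2, WT 3 and WT 1, Gapdh had 277, 154 and 209 CPM, Eno1 606, 366 and 433 CPM, and Tkt 620, 361 and 490 CPM. The 3 NM1 KO libraries lay between the WT extremes for each of these genes. Other abundant genes went otherwise, as Pfkfb3 had the wider spread in NM1 KO (SD 320 CPM) and the narrower in WT (SD 68.8 CPM). WT 2 was also the library with the most neutrophil marker RNA, with S100a9 at 8.41 CPM, against 0.888 and 0.962 CPM in WT 1 and WT 3. The part of those cells in its glycolytic transcripts was not tested. Without WT 2 the median log2 fold change of the set was 0.11, and without WT 3 it was -0.08.

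Of the other 11 isoenzyme ratios, all overlapped between the groups. The ratio Slc16a3/Slc16a1 differed by -0.64 ± 0.32 (exact permutation p = 0.2), Slc2a3/Slc2a1 by -0.44 ± 0.48 (exact permutation p = 0.5), Eno2/Eno1 by -0.40 ± 0.27 (exact permutation p = 0.3) and Ldhb/Ldha by 0.36 ± 0.32 (exact permutation p = 0.4). The ratios of Pfkm and Pfkp to Pfkl differed by -0.16 ± 0.34 (exact permutation p = 0.7) and 0.05 ± 0.11 (exact permutation p = 0.5). Among the genes of the set, the leading form of each family was the same in both groups by mean share. These forms were Slc2a1, Hk2, Pfkl, Pfkfb3, Aldoa, Pgam1, Eno1, Ldha and Slc16a1. The exception by library was NM1 KO 1, where Hk3 exceeded Hk2 with 43.8% of hexokinase transcripts against 41.5%. Slc2a1 led only over Slc2a3, as Slc2a4 is outside the set. Slc2a4 was far above both, at 51.3 RPKM in NM1 KO and 69.4 RPKM in WT, against 4.96 and 5.08 RPKM for Slc2a1. The Slc2a1 share of Slc2a1 and Slc2a3 together was 70.4% ± 9.0 in NM1 KO and 64.2% ± 7.7 in WT per kilobase of exon, but 58.7% in NM1 KO and 51.6% in WT with the length of the longest coding transcript, by which the carriers were level in NM1 KO 3 and Slc2a3 led in WT 1 and WT 3.

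Genes around the pathway were read from lists of the same biology. Of all genes tested, 4.25% were called, and 10.8% were lower and 13.0% higher at an unadjusted p under 0.05. Of 15 tested genes for other isoenzymes and side steps, edgeR called 0, with 3 lower and 0 higher at an unadjusted p under 0.05. Of 10 tested genes joined to the pentose phosphate pathway, 1 was called. This was Prps1, which makes the ribose donor of nucleotide synthesis, at 226, 221 and 208 CPM in NM1 KO and 129, 152 and 130 CPM in WT (0.67 ± 0.11, adjusted p = 0.027, edgeR). Of 6 tested gluconeogenesis genes and 11 of the hexosamine and polyol routes, 0 were called by edgeR. An unadjusted p under 0.05 was found for 1 and 5 of them, against 23.7% of all genes tested.

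Among 20 tested glycogen genes, the list median was 0.003. Stbd1, which binds glycogen at membranes, fell to 13.3, 20.5 and 21.0 CPM in NM1 KO, against 31.2, 42.0 and 42.0 CPM in WT (-1.07 ± 0.21, adjusted p = 0.0409, edgeR). Among 23 tested regulators of glycolysis, 7 had a positive log2 fold change and 1 was called, against 49.7% and 4.25% of all genes tested. Mlxipl, which encodes the carbohydrate response factor ChREBP, fell to 42.8, 61.9 and 55.1 CPM in NM1 KO, against 135, 103 and 146 CPM in WT (-1.27 ± 0.19, adjusted p = 0.0238, edgeR).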

How the data were processed

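The 36 genes, the other gene lists and the isoenzyme pairs were chosen with earlier results of these data known. For each of the 6 libraries the authors deposited raw counts per gene, not normalized. The build GRCm38 (mm10) and the tools HISAT2 2.0.4, HTSeq, Trimmomatic 0.36, SAMtools 0.1.19 and FastQC come per the submitters' processing notes. The kit was NEBNext Ultra II, per the labels' protocols. The sources used here do not state the annotation, the strand setting or the treatment of reads with several places, and overlapping genes (16 of the 36 share exonic bases with another gene) and genes with near-identical copies are uncertain. Of the 46603 identifiers, 46091 matched GENCODE M21, and the unmatched ones held 0.0333% of the counts. Entries naming no gene numbered 0.

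Groups follow the genotype label. Counts were tested with edgeR 4.0.16 (filterByExpr, TMM, robust quasi-likelihood, genotype only, two-sided, Benjamini-Hochberg). No library pair of a group agreed within sampling noise, and the common biological coefficient of variation was 25.3%. RPKM and family shares used the exonic length of each gene. Isoenzyme ratios were compared where both genes averaged at least 1 CPM, which left out 1 of 14 pairs. In simulated counts for NM1 KO against WT, where 200 of 15582 genes differed, 48% of 2-fold and 80% of 4-fold changes were recovered by edgeR, and 11.1% of the calls were unchanged genes. Copies were found with blastn 2.17.0+ on GENCODE M21 transcripts.

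Of the 36 genes, every library value is printed for those called or past an unadjusted p of 0.05 and for the leading isoenzyme of each family. Called genes of the other pathway lists are named, except for a result that is not reported here, with Slc2a4 and Myo1c whatever their values. Further values per library were chosen after they were seen. Alternatives were other size factors, other filters, non-robust dispersion, the replicate block, an offset for GC content and exonic length, protein-coding genes only, DESeq2 1.42.0, limma-voom (limma 3.58.1) with quality weights, added copy counts and leaving out each library. Shares with the length of the longest coding transcript and the marker sum without Lpl were added after seeing the data.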

Additional observations from a re-analysis of the deposited data

How the results depend on the processing

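The count of called genes among the 36 was 1, and it was 2 with no filter on low counts, with the GC and length offset, with DESeq2 and with limma-voom, in each case Hk3 and Pfkfb1. It was 3 with the replicate block and that offset together, which added Pfkfb4 (log2 fold change 0.68, adjusted p = 0.0356, edgeR). Leaving out 1 library gave 0 to 2 calls. Over all genes, 673 were called, against 336 with the replicate block, 2239 with DESeq2, 1648 with limma-voom, and 1 to 1654 when 1 library was left out. The cause of these shifts was not tested. Libraries with the same replicate number deviated together at r of -0.06, -0.04 and 0.19, and those with unlike numbers at -0.10 to 0.11. With 3 libraries per group, these values cannot decide whether the numbers pair the samples. Under the block alone the log2 value of Hk3 was 1.48 (adjusted p = 0.0378, edgeR), and 1 of the 36 was called. The Hk3/Hk1 difference of 1.57 cannot change with the block, as the mean of paired differences equals the difference of group means. An exact test that flips the signs of the paired differences gave p = 0.25, the smallest that 3 pairs allow. Hk3 kept a log2 fold change of 1.27 to 1.70 over 18 alternatives and was called in 14. Leaving out 1 library moved ratios across zero for Hk2/Hk1 (-0.130 to 0.069), Pfkm/Pfkl (-0.477 to 0.055), Pfkp/Pfkl (-0.028 to 0.122), Aldoc/Aldoa (-0.26 to 0.55) and Eno3/Eno1 (-0.62 to 0.09). Log2 fold changes were lower at higher GC content (Spearman's rho -0.37 over 13933 protein-coding genes, and genes are not independent replicates). For the deviation of each library from the gene mean over the 6 libraries, rho was -0.43 in NM1 KO 1, 0.239 in NM1 KO 2 and -0.457 in NM1 KO 3, and 0.349, 0.258 and 0.145 in WT 1, WT 2 and WT 3, so NM1 KO 1 and NM1 KO 3 stood apart from the other 4 libraries. At 3 libraries per group, changes under 2-fold were often not detectable.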
